A study of Homo sapiens with 3 samples.

Results

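The 35 zinc finger genes described here lie in band p12 of chromosome 19 and at its edge, between ZNF101 (chr19:19668796-19683509) and ZNF254 (chr19:24033405-24129961) on GRCh38. They were chosen by symbol from the 58037 genes of the count table, with earlier results of the same data known, so their counts and medians are a description and support nothing by themselves. Of these genes, 32 reached a mean normalised count of at least 20 over the 3 libraries, as did 14413 genes in all. The genes set beside them are the other 441 protein-coding genes whose symbol is ZNF and a number, of which 386 reached the same level.

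A375 is an established human melanoma cell line, and its poly(A) RNA was sequenced after 24 h in 3 media. The control cells were kept in serum-free DMEM, and the other cells in the same medium after it had been conditioned by adipocytes differentiated in culture from the skin of young (YA) or old (OA) donors. Each group had 1 library of 1 cell line, and the number of adipocyte donors behind each secretome was not given in the sources used here. In the study's list of donors, the old ones were all male and mostly from a biobank. The young ones were mostly female, and most of their cells were purchased. Age, sex and source of the donors can therefore not be told apart. The treatment protocol common to the samples allows a longer exposure than the description of the series. The study asked how melanoma cells respond to the lipids and proteins of the young and the old secretome.

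Most of these genes encode KRAB zinc finger proteins. An array of C2H2 zinc fingers in the carboxyl-terminal part of such a protein reads DNA, often a family of transposable elements, while the KRAB domain at the amino-terminal end recruits TRIM28. TRIM28 in turn brings the methyltransferase SETDB1, heterochromatin proteins and histone deacetylases, which together silence the bound site. The genes arose by repeated tandem duplication, which left them side by side as similar copies. ZNF91 and ZNF93 are the best studied of them and repress SVA and LINE-1 retroelements.

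The libraries held 18089008 (OA) to 21448195 (control) counts, and they were scaled by the median-of-ratios size factors of DESeq2, which ran from 0.891 (OA) to 1.06. As each group had a single library, no difference could be checked against replicates or tested, including those between groups of genes. A gene was called higher or lower at 1.2-fold or more, the cutoff named in the study's methods and read here as a linear fold change. The intervals of folds are 95% Clopper-Pearson intervals, and like the floor of 3 counts they cover counting error only. They treat reads as independent, which amplified reads are not, so they can be too narrow even for that error. In bulk RNA, fewer cells of a type and less RNA per cell cannot be told apart. Of the 14 melanocyte and melanoma markers, CSPG4, AXL, NES and PRAME had 3262 or more counts in every library, while 4 of the 14 were at or under the floor in each. Of the defining melanocyte genes, MITF had 1221 counts (control), 764 (YA) and 881 (OA), S100B had 843, 591 and 550, and MLANA had 22, 18 and 16, while SOX10 had 0 in all 3 libraries. The adipocyte hormones ADIPOQ and LEP had at most 1 count in a library.

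The start regions of these genes were alike, and the shared letters are shown here because they were not used to choose the genes. RefSeq windows of 300 bases around annotated starts were at hand for 27 of the 35 genes, in 28 windows. The most shared stretch of 10 bases was TCCAATCAGG, which holds the letters of a CCAAT box, and the next was CTGTCACTCA. Each was searched on both strands. Below are the 160 bases before the start, 5′ to 3′ on the gene's own strand (GRCh38.p14, RefSeq), with these 2 stretches in capitals. They belong to the 3 genes with the highest mean normalised count (ZNF91, ZNF714 and ZNF43) and to ZNF208 and ZNF708, which were among the lowest in OA against control. The ZNF43 start used by RefSeq lies inside the GENCODE span of that gene.
ZNF91, chr19:23395472-23395631, minus strand: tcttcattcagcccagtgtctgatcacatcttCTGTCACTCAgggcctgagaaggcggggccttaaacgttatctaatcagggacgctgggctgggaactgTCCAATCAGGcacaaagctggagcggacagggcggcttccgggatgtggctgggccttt
ZNF714, chr19:21082043-21082202, plus strand: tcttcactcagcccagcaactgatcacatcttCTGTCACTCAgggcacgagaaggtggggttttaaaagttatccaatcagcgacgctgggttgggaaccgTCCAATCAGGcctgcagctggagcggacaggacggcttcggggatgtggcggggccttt
ZNF43, chr19:21836183-21836342, minus strand: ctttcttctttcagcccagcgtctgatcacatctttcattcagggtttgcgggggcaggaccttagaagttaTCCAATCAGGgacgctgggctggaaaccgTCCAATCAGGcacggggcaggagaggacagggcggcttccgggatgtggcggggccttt
ZNF208, chr19:22010944-22011103, minus strand: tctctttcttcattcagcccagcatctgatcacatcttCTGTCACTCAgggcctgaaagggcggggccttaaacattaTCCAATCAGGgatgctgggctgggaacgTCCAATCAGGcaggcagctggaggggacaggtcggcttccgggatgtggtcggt
ZNF708, chr19:21329411-21329570, minus strand: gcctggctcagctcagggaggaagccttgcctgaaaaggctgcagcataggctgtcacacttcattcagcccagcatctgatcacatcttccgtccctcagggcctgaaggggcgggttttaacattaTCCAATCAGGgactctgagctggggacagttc

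TCCAATCAGG was in 25 of the 28 windows (89.3%), against 33 of 491 windows of other ZNF genes (6.72%) and 0.347% of all 35116 windows. CTGTCACTCA was in 22 of the 28 (78.6%), against 3.87% of the windows of other ZNF genes and 0.327% of all windows. The stretches were picked for being common in the 28 windows, so these shares describe them and are no test. The copy of TCCAATCAGG nearest to the start began 24 to 83 bases before it (median 58), and 6 windows held 2 copies. In the 20 windows with both stretches, the second began 39 to 77 bases further upstream than the nearest copy of the first (median 69). The shorter CCAAT was in 27 of the 28 windows, against 41.8% of the windows of other ZNF genes. The ETS letters CCGGAAGT were in none of the 28 windows, in 15.5% of those of other ZNF genes and in 4.14% of all windows. CRE, NRF1, AP-1 and NF-kB letters, also searched for, were in none of the 28 either. They were in 1.85%, 1.24%, 4.95% and 0.191% of all windows. The CpG content, as observed over expected, had a median of 0.443 in the 28 windows, 0.798 in those of other ZNF genes and 0.579 in all windows.

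**Figure D1:**
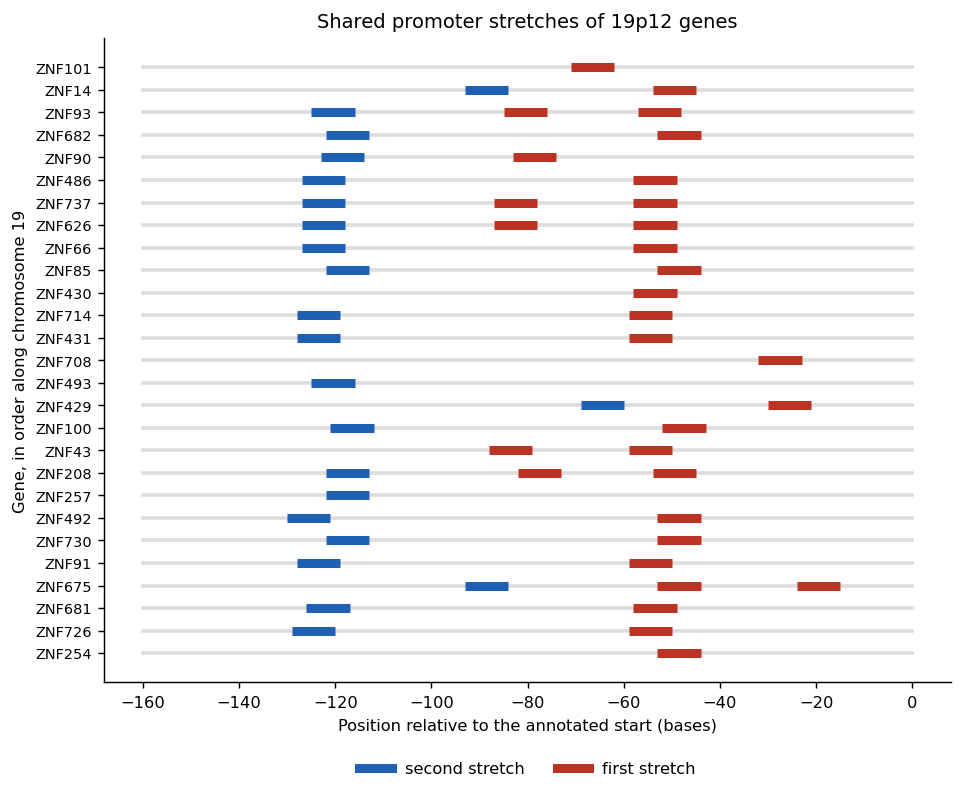
Positions of the 2 shared stretches in the 160 bases before the annotated start of 27 genes (horizontal axis, bases relative to the start; vertical axis, genes in order along chromosome 19). ZNF682 has another window, which holds neither stretch and is not drawn. Red bars mark TCCAATCAGG and blue bars CTGTCACTCA, and most genes carry the red bar about 58 bases before the start and the blue bar about 125 bases before it.

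The summed count of the 35 genes was 1.08 times control in YA, below the cutoff of 1.2-fold, and 0.751 times control in OA. They held 7316 counts (control), 7857 (YA) and 4612 (OA), which were 0.0341% of the control library (95% Wilson interval 0.0333 to 0.0349), 0.0369% of YA (0.0361 to 0.0377) and 0.0255% of OA (0.0248 to 0.0262). Their summed normalised count was 6894 (control), 7426 (YA) and 5177 (OA). The counting intervals of these ratios were 1.04 to 1.11 for YA and 0.724 to 0.779 for OA, and the YA sum was 1.43 times that of OA (1.38 to 1.49). The normalised count was lowest in OA for 33 of the 35 genes, and highest in YA for 25 and in control for 10. ZNF682 and ZNF714 were lowest in control, and none was lowest in YA or highest in OA.

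**Figure D2:**
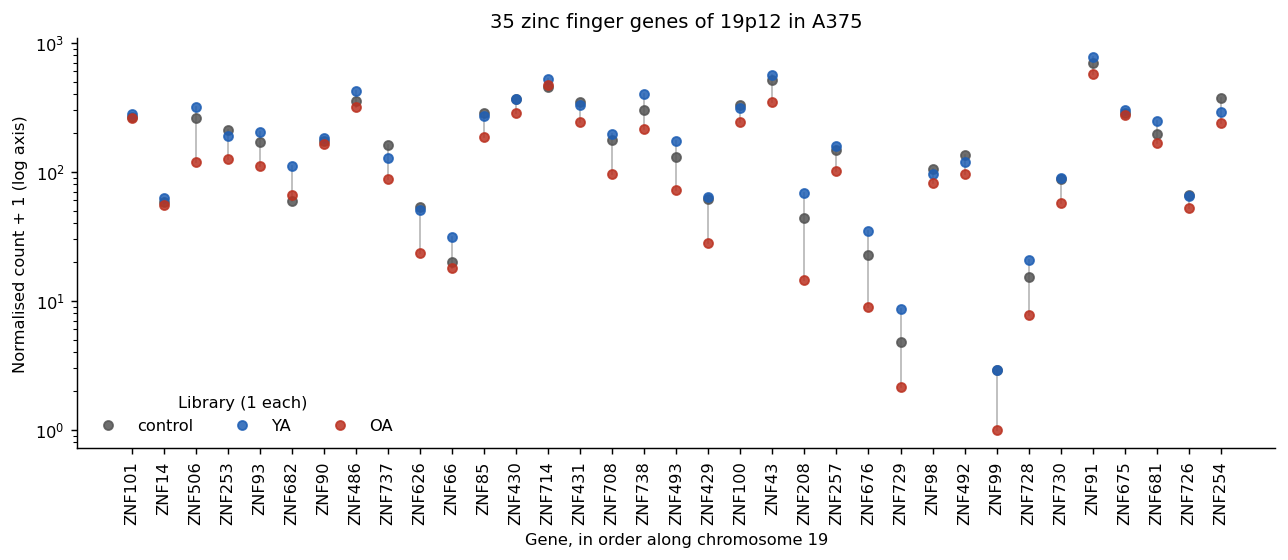
Normalised count plus 1 (vertical log axis) of the 35 genes in order along chromosome 19 (horizontal axis), with 1 point for each of the control (grey), YA (blue) and OA (red) libraries and no error bars, since each group had 1 library. The red point is the lowest for 33 of the 35 genes.

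Levels of different genes were compared per kilobase of exon. The highest means over the 3 libraries were 85.2 normalised counts per kilobase for ZNF486, 78.1 for ZNF738 and 65.5 for ZNF91. At the other end, ZNF99 had 0.160 and ZNF729 1.07 normalised counts per kilobase. Counts of these genes in A375 were low as a set, as were those of the other ZNF genes. The mean normalised count, not divided by length, had a median of 166 over the 32 genes past the filter. It was 197 over the other ZNF genes and 484 over all genes tested.

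The retroelement repressors ZNF91 and ZNF93 were both highest in YA and lowest in OA. ZNF91 (ENSG00000167232.13; chr19:23304991-23395560, minus strand) had 735 counts (control), 822 (YA) and 510 (OA), or 693, 777 and 573 normalised counts. In OA it was at 0.827 times the control level (0.737 to 0.927), and in YA at 1.12 times (1.01 to 1.24), the latter below the cutoff of 1.2-fold. ZNF93 (ENSG00000184635.13; chr19:19900913-19963464, plus strand) had 179, 215 and 97 counts in the same order, or 169, 203 and 109 normalised counts. Its level was 0.646 times control in OA (0.499 to 0.831), with the interval wholly beyond 1.2-fold, and 1.205 times control in YA (0.983 to 1.48), with an interval that includes 1.

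The first comparison asked how the young secretome moved these genes. Of the 32 genes past the filter, 9 (28.1%) were higher in YA than in control (all genes tested: 17.4%) and 2 (6.25%) were lower (16.4%). The other 386 ZNF genes were close to this, with 95 higher (24.6%) and 41 lower (10.6%). Of the 32, the higher genes were ZNF682, ZNF738, ZNF208, ZNF493, ZNF681, ZNF506, ZNF93, ZNF66 and ZNF676, and the lower ones ZNF254 and ZNF737. ZNF66 and ZNF676, with mean normalised counts of 22.0 and 21.2, reached the filter of 20 only through their high YA library. Their calls in this and the later comparisons therefore depend on that filter. The median log2 fold change was 0.09, against 0.07 for the other ZNF genes and -0.02 for all genes tested. By the counting interval, 1 of the 32 genes was beyond 1.2-fold, against 6.03% of all genes tested in that direction. For the other 8 genes called higher, the interval reached below 1.2-fold.

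ZNF682 (ENSG00000197124.11; chr19:19997058-20039506, minus strand) had the clearest difference in YA. It had 62 counts (control), 117 (YA) and 58 (OA), so the YA library stood apart from the other two. Its normalised level in YA was 1.89 times control (1.38 to 2.62) and 1.70 times OA (1.23 to 2.37), while OA was 1.11 times control (0.765 to 1.62).

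ZNF738, ZNF208, ZNF493 and ZNF681 came next, each with an interval above 1 but reaching below 1.2-fold. ZNF738 (chr19:21358930-21379302), whose representative transcript encodes no C2H2 finger, had 318 counts (control), 423 (YA) and 192 (OA), and was at 1.33 times control in YA (1.15 to 1.55). ZNF493 (chr19:21397119-21427573) had 138, 183 and 63 counts and was at 1.33 times control (1.06 to 1.67). For ZNF681 (chr19:23739195-23758891) the counts were 207, 263 and 148, with YA at 1.27 times control (1.06 to 1.54). All 4 were lowest in OA.

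At the other end, ZNF254 (chr19:24033405-24129961) had 392 counts (control), 308 (YA) and 213 (OA), and was at 0.788 times control in YA (0.677 to 0.917). ZNF737 (chr19:20535825-20565809) had 169, 134 and 77 counts and was at 0.795 times control in YA (0.629 to 1.004). Both genes were lower still in OA, so their order was control, YA, OA. ZNF100 had 351 counts (control), 327 (YA) and 216 (OA), ZNF253 had 223, 201 and 111, and ZNF431 had 369, 350 and 217. In YA these last 3 genes were at 0.934 (0.801 to 1.09), 0.904 (0.743 to 1.10) and 0.951 (0.820 to 1.10) times control, with intervals that include 1.

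The second comparison asked the same of the old secretome, and the genes were mostly lower. Of the 32 genes, 23 were lower in OA than in control (all genes tested: 21.5%) and 0 were higher (21.1%). The interval was wholly beyond 1.2-fold for 13 of them (9.08% of all genes tested), and 5 were at least 2-fold lower (3.71%), namely ZNF208, ZNF676, ZNF626, ZNF429 and ZNF506. The median log2 fold change was -0.51, against -0.11 for the other ZNF genes and 0.01 for all genes tested. Among the other 386 ZNF genes, 123 were lower (31.9%) and 37 higher (9.59%).

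**Figure D3:**
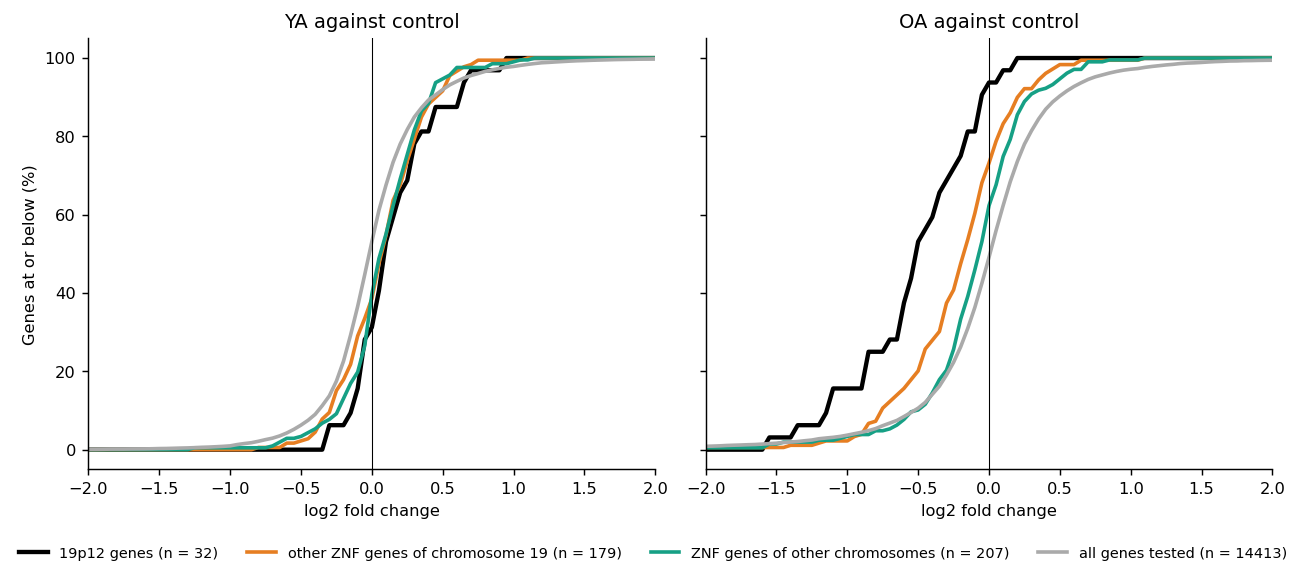
Cumulative share of genes (vertical axis, percent) at or below each log2 fold change (horizontal axis) for YA against control (left) and OA against control (right), with 1 curve per set of genes. In the right panel the black curve of the 32 genes of 19p12 lies to the left of the other ZNF genes of chromosome 19, those of other chromosomes and all genes tested, with a median of -0.51, while in the left panel the curves lie close together.

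ZNF506 (ENSG00000081665.13; chr19:19785839-19821751, minus strand) had the lowest upper bound. Its counts were 274 (control), 335 (YA) and 105 (OA), or 258, 317 and 118 normalised counts, so OA was the low library and YA the high one. The OA level was 0.456 times control (0.361 to 0.574), and YA was 2.69 times OA (2.15 to 3.38).

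ZNF208 (ENSG00000160321.14; chr19:21932958-22010949, minus strand), whose protein has 36 C2H2 fingers, showed the lowest ratio among the 32 genes but rests on few reads. It had 45 counts (control), 71 (YA) and 12 (OA). The OA level was 0.318 times control (0.153 to 0.611), and YA was 1.58 times control (1.07 to 2.35) and 4.98 times OA (2.68 to 10.1). ZNF676 (chr19:22179091-22215775), which shares 8.13% of the 50-base windows of its transcript with ZNF208, had 23, 36 and 7 counts. Its OA level was 0.363 times control (0.131 to 0.873) and its YA level 4.33 times OA (1.90 to 11.5). Reads from stretches shared by the pair could not be assigned with certainty to either gene.

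ZNF708, ZNF737 and ZNF429 completed the lowest 5 by the upper bound. ZNF708 (chr19:21291160-21329425) had 186 counts (control), 207 (YA) and 84 (OA), with OA at 0.538 times control (0.411 to 0.700) and YA at 2.07 times OA (1.603 to 2.71). ZNF737 was at 0.543 times control in OA (0.409 to 0.715). ZNF429 (chr19:21496682-21556270) had 64, 66 and 24 counts and was at 0.447 times control in OA (0.267 to 0.724). In all 3 genes the OA library was the low one, while the intervals of YA against control include 1 for ZNF708 (0.911 to 1.37), ZNF429 (0.722 to 1.48) and ZNF737 (0.629 to 1.004).

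ZNF43 (chr19:21804949-21852125), among the 3 genes with the highest counts, had 550 counts (control), 590 (YA) and 311 (OA). Its OA level was 0.674 times control (0.584 to 0.775), whereas YA was 1.08 times control (0.956 to 1.21). The interval also lay beyond 1.2-fold for ZNF254, ZNF431, ZNF253, ZNF93, ZNF493, ZNF85 and ZNF626. ZNF85 had 300 counts (control), 286 (YA) and 166 (OA), and ZNF626 had 55, 52 and 20. The remaining 10 genes called lower did so by the point value only. They included ZNF430 with 385, 387 and 252 counts, ZNF257 with 155, 168 and 89, and ZNF730 with 93, 93 and 50.

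Other genes lower by the point value were ZNF98 with 111 counts (control), 100 (YA) and 72 (OA), ZNF492 with 142, 124 and 84, and ZNF726 with 69, 68 and 46. ZNF98 and ZNF492 are near-identical over long stretches: ZNF98 shared 54.2% of its 50-base windows with ZNF492, and 58.1% with any other gene. The counts of this pair are uncertain for that reason. ZNF726 shared 21.8% of its windows with other genes.

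The other 9 genes past the filter were not called in OA against control. ZNF714 (ENSG00000160352.15; chr19:21082159-21125270, plus strand) had 478 counts (control), 553 (YA) and 419 (OA), or 450, 523 and 470 normalised counts. Its OA level was 1.04 times control (0.914 to 1.19), and YA was 1.16 times control (1.02 to 1.31) and 1.11 times OA (0.977 to 1.26). The 3 libraries were close together for this gene, whose start region carries both shared stretches.

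ZNF101, ZNF675 and ZNF486 were also near the control level in OA. ZNF101 (chr19:19668796-19683509), the first gene of the run, had 280 counts (control), 295 (YA) and 230 (OA), with OA at 0.979 times control (0.818 to 1.17). ZNF675, also known as TIZ, an inhibitor of TRAF6 signalling, had 303, 317 and 243 counts, with OA at 0.955 times control (0.804 to 1.13). For ZNF486 the counts were 374, 446 and 281, with OA at 0.895 times control (0.764 to 1.05). All 3 intervals lie above 0.751 times control, the OA level of the summed genes.

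The other genes not called in OA were ZNF682 and ZNF681, described above, and ZNF14, ZNF90 and ZNF66. ZNF14 had 61 counts (control), 65 (YA) and 48 (OA), and ZNF90 had 184, 192 and 145. ZNF66 had only 20, 32 and 15 counts, so its OA level of 0.893 times control had an interval of 0.426 to 1.84, and a change of the size seen in ZNF506 was not detectable at this depth.

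The remaining 3 genes did not reach the filter. ZNF728 had 15 counts (control), 21 (YA) and 6 (OA), with OA at 0.476 times control (0.151 to 1.30). ZNF729 had 4, 8 and 1 counts, a ratio of 0.298 in OA against control with an interval of 0.00605 to 3.01. ZNF99 had 2, 2 and 0 counts, all at or under the floor of 3, and no ratio is given. All 3 lie between ZNF676 and ZNF730, as do ZNF98 and ZNF492. The differences between the OA and control libraries of ZNF728 and ZNF729 were not detectable at this depth.

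**Figure D4:**
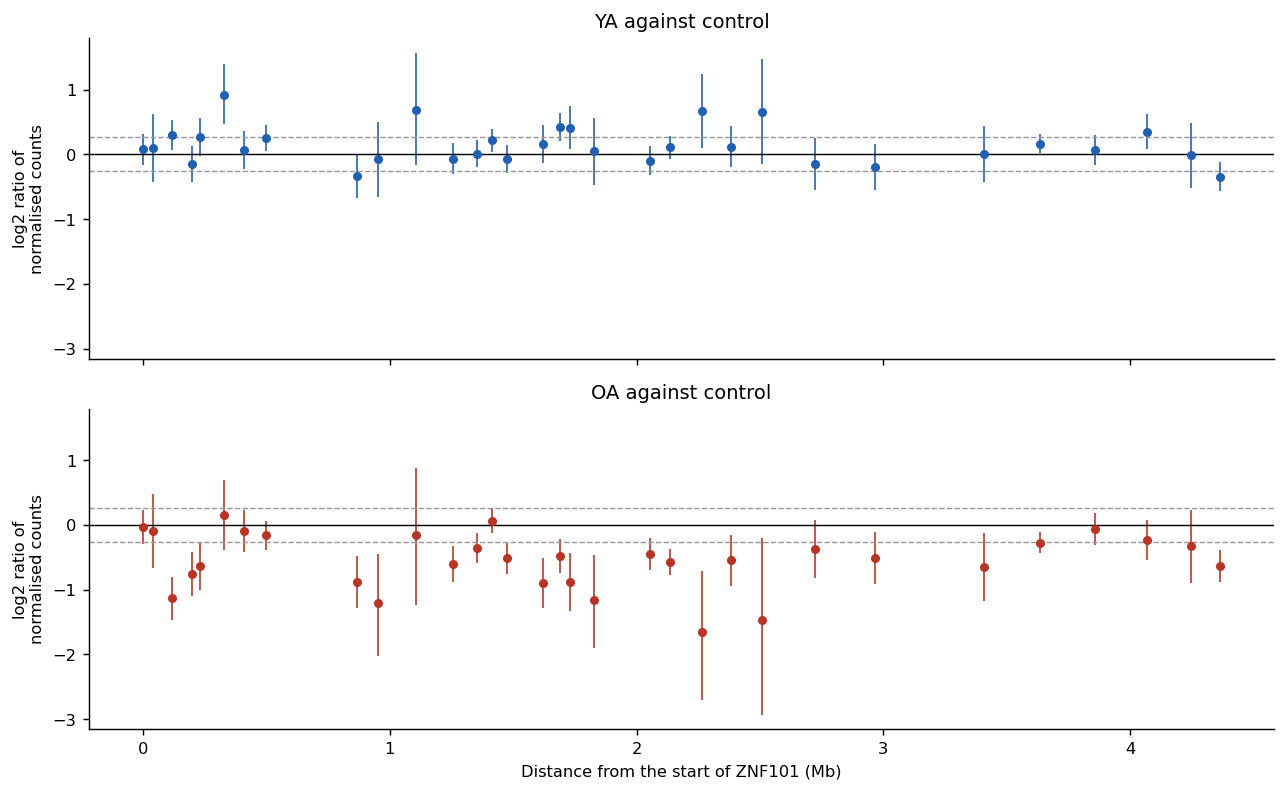
log2 ratio of normalised counts (vertical axis) against the distance of each gene from the start of ZNF101 (horizontal axis, Mb) for the 32 genes past the filter, in YA against control (upper panel) and OA against control (lower panel). Points are single-library ratios, vertical lines 95% counting intervals, and dashed lines mark 1.2-fold; in the lower panel 30 of the 32 points lie below 0.

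The third comparison set the secretomes against each other. Of the 32 genes, 26 were higher in YA than in OA (all genes tested: 23.0%) and 0 were lower (21.5%). The other 386 ZNF genes had 144 higher (37.3%) and 21 lower (5.44%). The interval lay wholly beyond 1.2-fold for 15 of the 32 genes (10% of all genes tested). At least 2-fold higher were 7 (4.43%), namely ZNF208, ZNF676, ZNF626, ZNF429, ZNF506, ZNF493 and ZNF708. ZNF676, which is in each of these counts, and ZNF66, one of the 26, reached the filter only through YA. The median log2 fold change of YA over OA was 0.56, against 0.16 for the other ZNF genes and -0.01 for all genes tested. The 5 genes with the highest lower bounds were ZNF208, ZNF506, ZNF676, ZNF493 and ZNF708, and ZNF493 was at 2.45 times OA (1.83 to 3.31). The 6 genes that were not called were ZNF714, ZNF101, ZNF675, ZNF90, ZNF14 and ZNF98. In YA, ZNF101 was at 1.08 times OA (0.906 to 1.29), ZNF675 at 1.10 times (0.926 to 1.30), ZNF90 at 1.11 times (0.894 to 1.39) and ZNF254, the next by the upper bound, at 1.22 times (1.02 to 1.46). The repressors ZNF91 and ZNF93 were at 1.36 times OA (1.21 to 1.52) and 1.87 times OA (1.46 to 2.397). The 3 comparisons share libraries in pairs, so their values are not independent of each other.

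Position, strand and transcript structure were set beside the difference in OA. In blocks of 8 genes along the chromosome, the median log2 fold change in OA against control was -0.13 for ZNF101 to ZNF486, -0.56 for ZNF737 to ZNF708, -0.72 for ZNF738 to ZNF676 and -0.35 for ZNF98 to ZNF254. The values within a block spread widely, from -1.12 to 0.15 in the first, and the blocks were not tested against each other. The median was -0.51 for the 18 genes on the plus strand and -0.51 for the 14 on the minus strand. Across the 32 genes, Spearman's rho with that log2 fold change was -0.09 for position, 0.10 for GC content, -0.07 for transcript length and -0.22 for the number of C2H2 fingers. With the share of 50-base windows found in other genes it was -0.38, and with the mean normalised count 0.36. These are descriptions across genes of the same libraries, not independent replicates.

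As a group the genes had AT-rich transcripts and long finger arrays. The median GC content of the representative transcript was 37.5%, against 44.0% for the other ZNF genes. The median number of C2H2 fingers per protein was 13, against 10, and the longest arrays were the 39 fingers of ZNF729, the 36 of ZNF208 and the 32 of ZNF91. The median share of 50-base windows found in another gene was 6.43%, against 1.58%. Across other coding genes the difference in OA varied little with GC content. Over 10 bins of such genes, the median log2 fold change in OA against control ran from -0.01 in the lowest bin to 0.09 in the highest. Of the 4168 coding genes no richer in GC than the richest of the 32, other than ZNF genes, 19.3% were lower in OA, with a median of -0.01. Their median GC content was 40.8%, above that of the 32 genes, and the bins also left out ZNF genes. The other ZNF genes of chromosome 19 had a median GC content of 43.2% and a median log2 fold change of -0.17. For ZNF genes of other chromosomes these were 46.4% and -0.08. Whether GC content bears on the difference among ZNF genes was not tested.

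**Figure D5:**
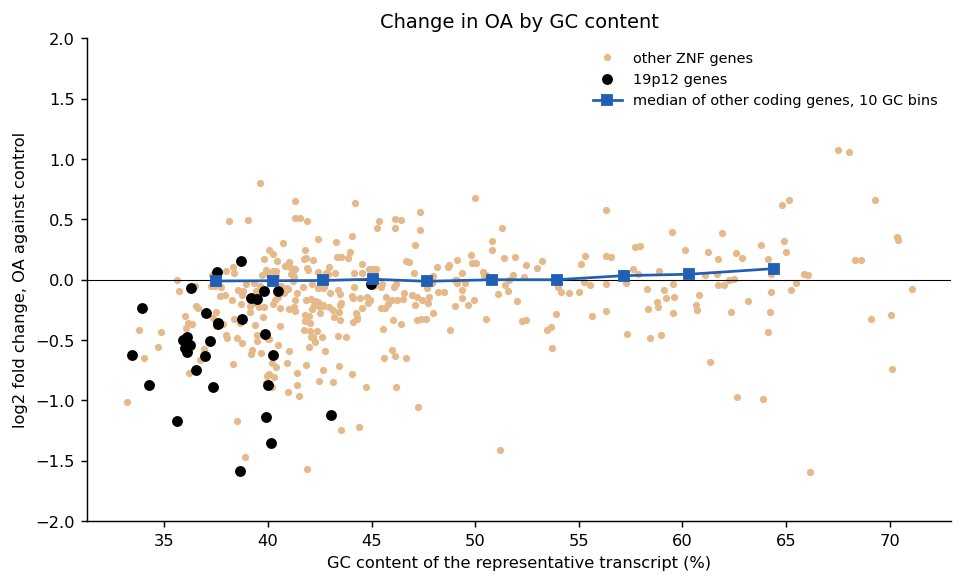
log2 fold change in OA against control (vertical axis) by GC content of the representative transcript (horizontal axis, percent) for the 32 genes of 19p12 (black), the other ZNF genes (tan) and, as blue squares, the median of other coding genes in 10 GC bins. The black points have a median of -0.51, whereas the blue squares stay between -0.01 and 0.09 (points beyond the axis limits are not drawn).

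Other runs of ZNF genes showed smaller medians in the same direction. The other 179 ZNF genes of chromosome 19 had a median of -0.17 (log2 fold change, OA against control), with 72 lower (40.2%), and the 207 on other chromosomes one of -0.08, with 51 lower (24.6%). The 207 ran from -2.39 to 1.07, with 129 below 0 and 78 above it. Some were far below their median, such as ZNF117 of chromosome 7 (-1.01) and ZNF670 of chromosome 1 (-1.47), and others above it, such as ZNF697 of chromosome 1 (0.68). These single genes were chosen after their values were seen. Among the runs, the nearest in value was that from ZNF565 to ZNF573 on the long arm of chromosome 19. Its 22 genes past the filter had a median of -0.36, with 13 lower and 0 higher, and a median transcript GC content of 38.6%. The run from ZNF557 to ZNF846 on the short arm, with 14 genes, had a median of -0.05. Whether these runs differ from the 35 genes could not be tested with 1 library per group.

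The shared promoter stretch was also looked at outside 19p12. Of the 35 genes, the 25 with TCCAATCAGG that passed the filter had a median of -0.45 (log2 fold change, OA against control), with 16 lower (64.0%). The other 7, of which 5 had no window and 2 (ZNF493 and ZNF257) had one without the stretch, were all lower, with a median of -0.75. Whether the 5 genes with no window carry the stretch is unknown. The 2 known to lack it had a median of -0.71, and 2 genes are too few for a comparison with the 25. The 25 other ZNF genes with the stretch had one of -0.33, with 13 lower (52.0%), while the 310 other ZNF genes with a window but without it had one of -0.11, with 29.4% lower. These 2 sets also differed in median transcript GC content, at 41.3% and 44.2%, and the stretch was not tested apart from GC content. The 22 genes with the stretch that are not ZNF genes had a median of 0.00. A match of letters is a description and not a sign that a factor is bound there.

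Between ZNF101 and ZNF254 the count table also holds 170 other genes, mostly pseudogenes and long noncoding RNAs, of which 14 passed the filter. In OA against control 9 of them were lower (64.3%, all genes tested: 21.5%) and 0 higher (all genes: 21.1%), with -0.58 as the median log2 fold change. The interval lay wholly beyond 1.2-fold for 3 of the 14 (21.4%, all genes tested: 9.08%). AC078899.1 and RP11-15H20.8, both among the 9, passed the filter only through their high control library. The 3 named next were chosen after their values were seen. The long noncoding RNA LINC00664 had 47 counts (control), 78 (YA) and 4 (OA), and was at 0.101 times control in OA (0.0265 to 0.277). CTD-2561J22.5 had 131, 170 and 22 counts and was at 0.200 times control (0.121 to 0.316). ZNF724, a zinc finger gene of the same run that is not among the 35, had 139, 111 and 120 counts, with OA at 1.03 times control (0.799 to 1.32).

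The genes through which KRAB zinc finger proteins act were called in both directions, at shares near or below those of all genes tested. Their median of the mean normalised count was 2328, against 484 over all genes tested, and the shares were not adjusted for this. All 25 genes of a list of KRAB corepressors and heterochromatin factors passed the filter. In OA against control 4 were higher (16%, all genes tested: 21.1%) and 3 lower (12%, all genes: 21.5%), and the median log2 fold change was 0.13. YA against control also had 4 higher (16%, all genes: 17.4%) and 3 lower (12%, all genes: 16.4%), and its median was 0.05. For YA against OA the counts were 3 higher (12%, all genes: 23.0%) and 3 lower (12%, all genes: 21.5%), and the median was -0.10. TRIM28, the scaffold that KRAB domains bind, had 10267 counts (control), 11118 (YA) and 10489 (OA), which put OA at 1.22 times control (1.18 to 1.25) and YA at 1.09 times (1.06 to 1.12). SETDB1, which trimethylates lysine 9 of histone H3, had 1594, 1724 and 1249 counts, with OA at 0.933 times control (0.866 to 1.006).

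The corepressor genes higher in OA were TRIM28, given above, ATF7IP, SUV39H1 and DNMT1. ATF7IP was at 1.29 times control (1.21 to 1.37), SUV39H1 at 1.30 times (1.16 to 1.47) and DNMT1 at 1.26 times (1.22 to 1.30). Those lower in OA were MPHOSPH8, ATF7IP2 and SMARCAD1. MPHOSPH8, a subunit of the HUSH silencing complex, had 1709 counts (control), 1429 (YA) and 939 (OA), with OA at 0.655 times control (0.604 to 0.709) and YA at 1.28 times OA (1.18 to 1.39). ATF7IP2, a relative of the SETDB1 cofactor ATF7IP, had 187, 206 and 104 counts with OA at 0.663 times control (0.516 to 0.846) and YA at 1.67 times OA (1.31 to 2.13). The chromatin remodeller SMARCAD1, which binds TRIM28, had 1714, 1630 and 1083 counts and was at 0.753 times control (0.697 to 0.813). The other HUSH subunits of the list, FAM208A (TASOR) and PPHLN1, were not called in any comparison.

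In YA against control the largest differences in the list were those of ZNF274, UHRF1 and CBX3. ZNF274, a KRAB zinc finger protein that binds the 3′ ends of other ZNF genes and brings SETDB1 there, had 557 counts (control), 760 (YA) and 555 (OA), with YA at 1.37 times control (1.23 to 1.53). UHRF1, which maintains DNA methylation, had 3618, 2819 and 3534 counts, with YA at 0.781 times control (0.744 to 0.821) and at 0.672 times OA (0.639 to 0.706). CBX3, a heterochromatin protein, had 6604, 5305 and 5426 counts, with YA at 0.806 times control (0.777 to 0.835).

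Markers of the other cell types that the cultures or secretomes could hold were set beside these values. The 10 adipocyte markers summed to 2240 normalised counts (control), 3180 (YA) and 2276 (OA), with 1, 2 and 2 markers at 0. Most of each sum was PPARG, with 1515, 1856 and 1717 normalised counts. LPL, with 333, 551 and 33.7, and FABP4, with 15.1, 14.2 and 2.24, were lowest in OA. In contrast, CIDEC, with 5.65, 29.3 and 40.4, and CFD, with 26.4, 33.1 and 44.9, were highest in OA. The 10 fibroblast and stromal markers summed to 715, 905 and 660 normalised counts, with 1, 0 and 0 markers at 0. Within that list DCN was highest in YA, with 12.2, 130 and 26.9 normalised counts, while PDGFRA was lowest in YA, with 71.6, 18.9 and 57.2. These single markers were chosen after their values were seen. Both sums were highest in YA, as the summed count of the 35 genes was, and their part in the result was not tested.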

How the data were processed

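Poly(A) RNA of A375 cells was sequenced in 3 libraries, 1 per group. The authors deposited raw counts per gene, unnormalised whole numbers for 58037 gene identifiers with symbol and biotype. The submitters' processing notes name STAR 2.5.1b, featureCounts, R 3.6.1 and hg38. The annotation release and the use of strand were not given in the sources used here, so counts of overlapping, antisense or near-identical genes are uncertain. The files held no other column of per-sample values.

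Size factors came from DESeq2 1.42.0 in R 4.3.3 (edgeR 4.0.16 for TMM), and the rest from Python 3.11.15 (pandas 2.3.3, numpy 2.4.6, matplotlib 3.10.9, scipy 1.17.1). Fold changes were log2((a + 1)/(b + 1)) of normalised counts over the genes with a mean of at least 20, while ratios with intervals used the counts without a pseudocount. The procedure was tested on simulated data that held counting error only, so that test cannot speak to variation between libraries of the same group. No test was possible with 1 library per group.

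Positions, transcript lengths, GC content and fingers (by the spacing of cysteines and histidines) came from GENCODE 29 on GRCh38, which matched 57433 identifiers without their version. The members, gene lists and alternatives were chosen with earlier results of these data known. By rule, the text gives full values for the 5 highest lower bounds and the 5 lowest upper bounds of each comparison, for ZNF91 and ZNF93, and for the 3 highest means. Of the corepressors it gives TRIM28, SETDB1 and the 3 largest changes per comparison. Outside the rule it adds ATF7IP, SUV39H1 and DNMT1, the other corepressors called higher in OA against control.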

Additional observations from a re-analysis of the deposited data

How the results depend on the processing

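Under TMM scaling, total-count scaling, a pseudocount of 5 and no expression filter, no count, median or sum given for the 3 comparisons moved by over 1.5 times or past its counting error, and under the first 3 of these no named gene called at 1.2-fold changed direction. ZNF93 alone crossed that cutoff, in YA against control, where its log2 fold change of 0.27 became 0.26 with a pseudocount of 5. In YA against control, the 9 genes called higher became 5 with a minimum mean of 100, 0 at 2-fold and 1 by the counting interval, and the 2 called lower became 0 under the length and GC correction, at 2-fold and by the interval. The median of 0.09 became 0.15 under that correction and 0.14 as a mean, and the summed log2 fold change of 0.11 became 0.18 with equal weights for every gene. In OA against control, the 23 genes called lower became 5 at 2-fold and 13 by the interval, and the summed log2 fold change of -0.41 became -0.61 with equal weights. In YA against OA, the 26 genes called higher became 7 at 2-fold and 15 by the interval. There the median of 0.56 became 0.49 with a minimum mean of 100 and 0.68 as a mean, and the sum of 0.52 became 0.79 with equal weights. The median in OA against control was -0.50 under the length and GC correction. The stricter thresholds and filter keep fewer genes by construction, and the cause of the other shifts was not tested. No paired analysis was possible because each group had 1 library, which also leaves no replicate to leave out. Depth limits the genes with fewer than about 50 counts, such as ZNF66, ZNF676 and ZNF208, whose intervals are wide.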
